A study of Homo sapiens with 2 samples.

Results

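Basement membrane and matrix protein genes are described here in HUVECs, which are primary endothelial cells from the vein of the human umbilical cord. The group was chosen by gene symbol. It took in every collagen chain and laminin chain gene plus FN1, SPARC, NID1, NID2, FBN1, EFEMP1, FBLN1, FBLN2, FBLN5, LOX, LOXL1, LOXL2, POSTN, ELN, MGP, BGN, MMRN2, ECM1 and TGFBI. Of 36601 genes in the files 75 carried such a symbol, and the 43 with 20 or more UMIs (molecule tags, so that 1 UMI stands for 1 captured RNA) over both libraries were kept as members. In the study the HUVECs lined microfluidic channels of 50 µm and were perfused with red blood cells for 4 hours. One group, hRBC, received healthy red cells alone. The other, 5% pdRBC, received healthy cells mixed with 5% that nystatin and sucrose washes had dehydrated, which raised their hemoglobin concentration to 40 to 42 g/dL as a stand-in for stiff sickle cells. By its title the series asks about endothelial inflammation brought on mechanically by less deformable red cells. Both groups shared the culture to confluence under flow (about 48 hours in EGM-2 medium), the device and the healthy red cells. The number of cell donors, devices or red cell donors is not given in the sources used here.

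Each group is 1 library, so no test or p-value is given, and all intervals are 95% intervals that cover counting error only. A difference between the libraries cannot be told apart from one between devices, captures or cultures. The hRBC library held 2555 cells after filtering with 13335148 UMIs, and the 5% pdRBC library 1601 cells with 16127985 UMIs. Depth per cell differed, with medians of 2175 and 9566 UMIs. The libraries shared 9 barcodes, of which 6 passed the filter in both. All 10 endothelial markers had UMIs in both libraries, summing to 4033 and 3828 CPM (a gene's UMIs after both libraries are brought to the same total). Fibroblast and mural markers were counted because such cells also make collagen. Of 14 such markers 11 had UMIs, with summed levels of 393 CPM in hRBC and 347 CPM in 5% pdRBC, nearly all from RGS5 (369 and 328 CPM). Of the other markers, TAGLN had 189 UMIs in hRBC and 164 in 5% pdRBC, PDGFRA 87 and 92, and ACTA2 38 and 35. DCN and LUM stood at 3 and 0 UMIs in hRBC and at 5 and 1 in 5% pdRBC. DPT, THY1 and KCNJ8 were at 0.

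A basement membrane is the thin sheet of matrix on which endothelium sits. Its scaffold is a network of laminins, which are trimers of an alpha, a beta and a gamma chain, and a network of type IV collagen, which nidogens and perlecan tie together. Endothelium builds mostly laminins with the alpha4 or alpha5 chain and type IV collagen with alpha1 and alpha2 chains, and it also secretes fibronectin and small matrix regulators such as SPARC and MGP. Fibrillar collagens I and III, the bulk of connective tissue, come mainly from fibroblasts.

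The genes of the alpha1 and alpha2 chains of type IV collagen lie head to head on chromosome 13 and are read in opposite directions from a shared start region. Their RefSeq starts are 126 bases apart, and in GENCODE 29 transcripts of both genes begin between these starts. The sequences upstream of LAMC1 and FN1 are shown because these genes were higher with 5% pdRBC in different cell states. Both are from RefSeq (GRCh38.p14), 5′ to 3′ on the strand of the gene named. Capitals mark a GC box (GGGCGG) or a CCAAT box (CCAAT) on either strand.
LAMC1 (plus strand), chr1:183023170-183023419: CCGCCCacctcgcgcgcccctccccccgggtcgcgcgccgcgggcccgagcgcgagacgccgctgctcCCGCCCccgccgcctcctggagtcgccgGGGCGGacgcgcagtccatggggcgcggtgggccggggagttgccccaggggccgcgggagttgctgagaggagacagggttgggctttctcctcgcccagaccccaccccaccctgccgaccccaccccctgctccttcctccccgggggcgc
FN1 (minus strand), chr2:215436173-215436318: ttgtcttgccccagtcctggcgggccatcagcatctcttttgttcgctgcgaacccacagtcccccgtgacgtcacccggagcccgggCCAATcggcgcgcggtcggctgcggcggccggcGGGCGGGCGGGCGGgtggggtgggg

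The LAMC1 segment ends at the base before the RefSeq start. The FN1 segment stops short of the RefSeq start at 215436068, because GENCODE 29 gives the bases between as part of FN1. Those bases, next to the start, were left out of the search. The FN1 segment overlaps an exon of the antisense gene AC012462.3 in GENCODE 29. The LAMC1 segment held 3 GC boxes and no CCAAT box, and the FN1 segment 3 overlapping GC boxes and 1 CCAAT box. Neither printed segment held a TATA box (TATAAA) or an AP-1 site (TGANTCA), searched on both strands. G and C made up 79.6% and 74.0% of their bases. The segments, of 250 and 146 bases, are shorter than the 35116 RefSeq promoter windows of 300 bases. Of those windows 45.0% held a GC box, 34.6% a CCAAT box, 11.5% a TATA box and 7.71% an AP-1 site. A promoter window was matched by symbol for 36 of the 43 members, and 24 of these held a GC box, 13 a CCAAT box, 7 a TATA box and 4 an AP-1 site. A member was counted if any window of its symbol held the motif, whereas the shares above count single windows. The member counts and those shares are thus unlike measures and show no enrichment. A match describes letters only and shows no binding.

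Matrix genes as a whole took a nearly equal part of the RNA in both libraries. The 43 members made up 0.604% (0.600 to 0.608) of all UMIs in hRBC and 0.609% (0.605 to 0.612) in 5% pdRBC. SPARC and FN1 alone gave 43.4% of the members' UMIs in hRBC and 43.3% in 5% pdRBC. Since the kit counts the 5′ end of each molecule once, UMIs are not divided by gene length, and levels are compared between libraries or states, not between genes.

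Few members differed by much between the libraries. A member was called when its level differed at least 1.25-fold and the interval of the fold left out 1. By this rule 2 of 43 members, LAMA2 and COL21A1, were higher with 5% pdRBC (5.26% of all 14363 genes with 20 or more UMIs were called so), and 1, TGFBI, was lower (3.59% of all genes). The first 2 also passed 1.5-fold (2.44% of all genes), and 0 members were 1.5-fold lower (1.67% of all genes). All 3 were sparse. Among the 25 members with 500 or more UMIs none was called in either direction, against 3.55% higher and 2.61% lower of the 7020 genes counted so deeply. The median log2 fold of the members was -0.04, beside 0.02 over all genes.

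Below that size, small differences went both ways. At any fold, the interval left out 1 for 9 members that were higher (13.1% of all genes) and 7 that were lower (10.2%). Restricted to 500 or more UMIs, the counts were 7 higher and 6 lower of 25 members, against 19% and 15.9% of all such genes. The plot of folds by role shows laminin chains LAMA4, LAMB1 and LAMC1 to the right of 0 and COL4A1 and COL4A2 to the left.

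**Figure D1:**
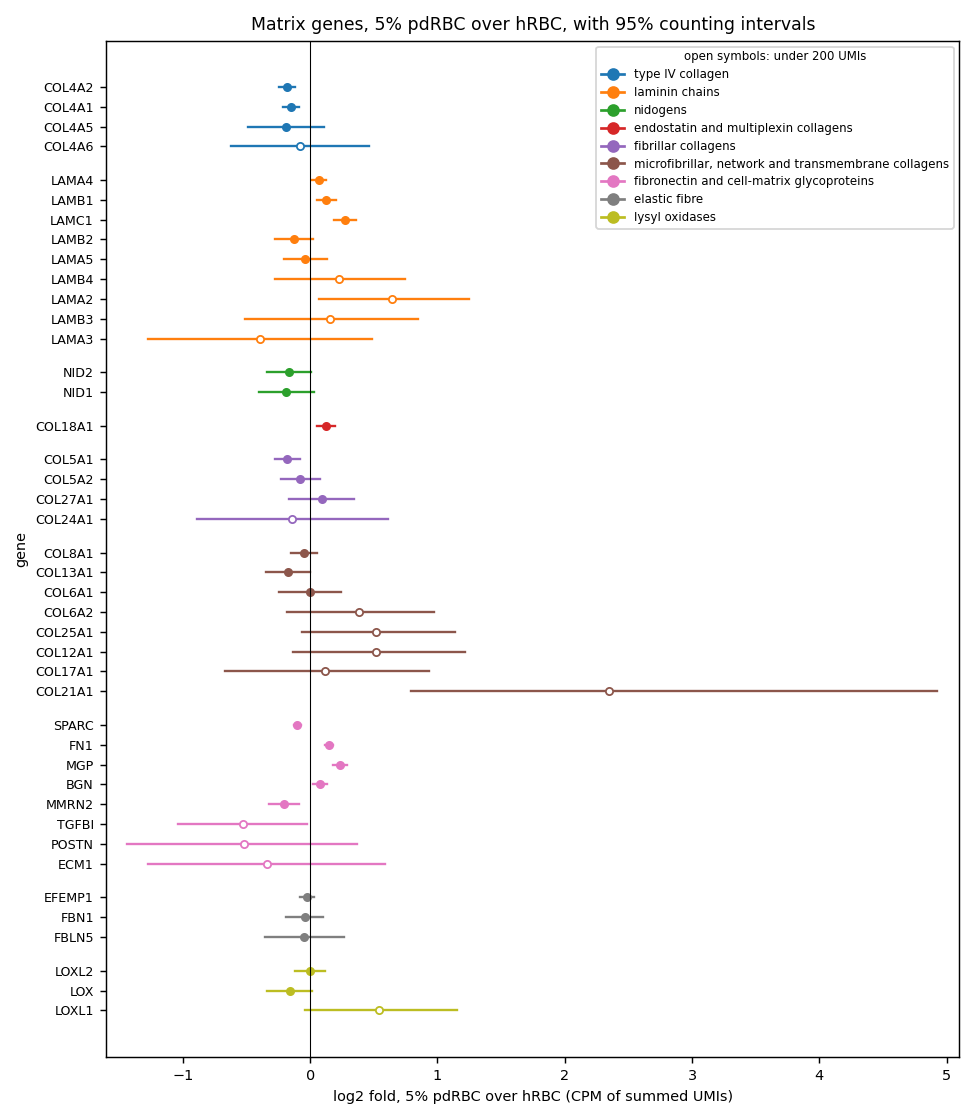
Log2 fold of 5% pdRBC over hRBC (x axis, CPM of summed UMIs) for the members reported here by name (y axis), grouped and coloured by role. Points are folds and bars 95% counting intervals, with open symbols for members under 200 UMIs. Members with 500 or more UMIs lie close to 0, and the sparse members scatter widely, up to 2.34 for COL21A1.

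Type IV collagen was lower with 5% pdRBC by a small margin. COL4A1, which codes for the alpha1 chain and spans 110148963 to 110307233 on the minus strand of chromosome 13 in GRCh38, stood at 300.2 CPM in hRBC and 271 CPM in 5% pdRBC. That is 1.11-fold (1.06 to 1.16) lower. COL4A2, for the alpha2 chain of the same trimer, stood at 321 and 283 CPM, 1.13-fold (1.09 to 1.18) lower. COL4A5, on the X chromosome and the alpha chain of a rarer network, had 183 and 194 UMIs and a log2 fold of -0.19 (-0.49 to 0.11), which covers no difference. Its neighbour COL4A6, whose RefSeq start lies 379 bases away on the other strand, had 56 and 64 UMIs. Chains alpha3 and alpha4, typical of kidney and lung membranes, had 2 UMIs each in hRBC and 1 each in 5% pdRBC.

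The nidogens, which link laminin to type IV collagen, had the same sign without clearing their intervals. NID1 had a log2 fold of -0.19 (-0.40 to 0.03) at 26.4 and 23.2 CPM, and NID2 one of -0.16 (-0.34 to 0.01) at 40.5 and 36.1 CPM. COL18A1, a heparan sulfate collagen of vascular basement membranes whose end fragment is endostatin, went the other way at 209.7 and 228 CPM, 1.09-fold (1.04 to 1.14) higher.

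Laminin chains of the alpha4, beta1, gamma1 trimer were all slightly higher. LAMC1, the gamma1 chain common to most laminins, stood at 132 CPM in hRBC and 160 CPM in 5% pdRBC and was 1.21-fold (1.14 to 1.29) higher, the largest fold higher among the 25 members with 500 or more UMIs. LAMB1, the beta1 chain, was 1.09-fold (1.04 to 1.15) higher at 187 and 204 CPM. LAMA4, the endothelial alpha4 chain, was 1.05-fold (1.01 to 1.09) higher at 364 and 382 CPM. LAMA5, the alpha5 chain that mature vessels add, had a log2 fold of -0.04 (-0.21 to 0.13), and LAMB2, the beta2 chain, one of -0.13 (-0.28 to 0.02). The intervals of both cover no difference. LAMB1 and LAMA4 took the other sign in some settings (given at the end), LAMC1 in none.

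LAMA3 and LAMB3, laminin chains typical of epithelial membranes, had 25 and 34 UMIs in hRBC and 23 and 46 in 5% pdRBC. Such counts do not resolve a difference of 1.25-fold. LAMA2, the alpha2 chain of muscle laminin, had 39 UMIs in 38 cells of hRBC and 74 UMIs in 68 cells of 5% pdRBC, a 1.56-fold (1.05 to 2.38) higher level. With equal weight to each cell state its log2 fold was -0.38. LAMB4 had 57 and 81 UMIs.

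Among secreted glycoproteins, FN1 and MGP were higher and SPARC and MMRN2 lower. FN1, fibronectin, to which integrins attach, stood at 1077 CPM in hRBC and 1195 CPM in 5% pdRBC and was 1.11-fold (1.09 to 1.13) higher. MGP, matrix Gla protein, an inhibitor of calcification and of bone morphogenetic proteins, stood at 335 and 395 CPM and was 1.18-fold (1.13 to 1.23) higher. BGN, the proteoglycan biglycan, was 1.06-fold (1.02 to 1.10) higher at 336 and 355 CPM. SPARC, a collagen-binding protein that weakens cell adhesion, was 1.07-fold (1.05 to 1.09) lower at 1542 and 1438 CPM. MMRN2, an endothelial glycoprotein that binds CD93 and CLEC14A, was 1.15-fold (1.06 to 1.25) lower at 88.9 and 77.1 CPM. The folds of MGP and BGN changed sign when each cell state was given equal weight (log2 -0.24 and -0.21).

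TGFBI, an adhesive protein induced by TGF-beta, had 74 UMIs in hRBC and 62 in 5% pdRBC and was 1.44-fold (1.02 to 2.06) lower. The call was lost with a stricter cell filter, among cells of 5000 or more UMIs or without the cycling cluster. POSTN, periostin, and ECM1 had 25 and 22 UMIs in hRBC and 21 each in 5% pdRBC and no difference was detectable at this depth.

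Fibrillar collagen RNA in these cells was type V, which starts collagen fibrils, rather than types I and III. COL5A1 stood at 130 and 115 CPM and was 1.13-fold (1.06 to 1.21) lower with 5% pdRBC. COL5A2 had a log2 fold of -0.08 (-0.23 to 0.08) at 49.9 and 47.4 CPM, and COL27A1 one of 0.09 (-0.16 to 0.35). COL1A1 had 2 UMIs in hRBC and 0 in 5% pdRBC, COL1A2 8 and 8, and COL3A1 5 and 8, all under the minimum of 20. Elastin (ELN) had 2 UMIs in hRBC and 0 in 5% pdRBC.

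Of the other collagens COL8A1, a short-chain collagen of vessel walls, was at 109.7 and 106 CPM with a log2 fold of -0.05 (-0.15 to 0.05). COL13A1, a transmembrane collagen, was 1.13-fold (1.00 to 1.27) lower, and COL6A1 was level at 19.0 CPM in both libraries. COL21A1, a fibril-associated collagen, had 3 UMIs in 3 cells of hRBC and 21 UMIs in 21 cells of 5% pdRBC. Its ratio of 5.08 (1.73 to 30.3) rests on those 3 UMIs. COL25A1, COL12A1 and COL6A2 had 39, 31 and 43 UMIs in hRBC and 68, 54 and 68 in 5% pdRBC, with intervals that held 1, and COL17A1 and COL24A1 had 25 and 31 UMIs in hRBC and 33 and 34 in 5% pdRBC.

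Elastic fibre genes were close to level. EFEMP1, fibulin-3, stood at 377 and 372 CPM with a log2 fold of -0.02 (-0.08 to 0.03). FBN1, fibrillin-1, the backbone of microfibrils, had one of -0.04 (-0.19 to 0.10), and FBLN5, fibulin-5, which places elastin on them, one of -0.04 (-0.35 to 0.27). Lysyl oxidases crosslink collagen and elastin. LOXL2 was level at 81.1 and 81.0 CPM, LOX had a log2 fold of -0.16 (-0.34 to 0.02) at 37.7 and 33.7 CPM, and LOXL1 had 39 and 69 UMIs with an interval that held 1.

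The 32 matched genes under the minimum had at most 17 UMIs each, and 7 of them had 0: COL2A1, COL6A3, COL6A5, COL9A1, COL20A1, COL22A1 and LAMC3. A count of 0 allows up to 3 UMIs, which is 0.225 CPM in hRBC and 0.186 CPM in 5% pdRBC.

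Cells were then grouped into states by clustering both libraries together with the members kept out of the genes used. Of 12 clusters, 6 held 20 or more cells of both libraries. Cluster 0, the cycling cluster, was led by cell cycle genes such as CDK1, TOP2A and HIST1H1B. Cluster 2 was led by SELE, CXCL1 and CCL2, and cluster 3 by MGP, GIMAP7 and FABP4. Cluster 5 was led by DDIT3, TRIB3 and HSPA5, which belong to the endoplasmic reticulum stress response. TMEM158, STC1 and EGR1 led cluster 6, GJA4, DKK2, SOX5 and the member POSTN cluster 8, and GLIS3 and MECOM cluster 9. Cluster 1 was shallow, with a median of 1510 UMIs in its 1099 hRBC cells and 5296 in its 62 cells of 5% pdRBC. The libraries were spread unevenly over the clusters, and values are given within each.

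Levels of members differed between states. Over whole libraries no member with 500 or more UMIs exceeded 1.21-fold between hRBC and 5% pdRBC. Within single states some folds between the libraries were larger. FN1 had a log2 fold of 0.45 in cluster 8 and MGP one of -1.39 in cluster 1. A range over 7 states and a fold between the libraries are different measures, so their sizes were not compared. Over the 25 members with 500 or more UMIs the median log2 ratio of the highest to the lowest of 7 states of 50 or more cells was 1.77, beside 1.5 over all 7020 such genes. In cells of 5000 or more UMIs, clustered anew, these medians were 0.95 and 0.70. Small states add counting noise to such ratios.

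**Figure D2:**
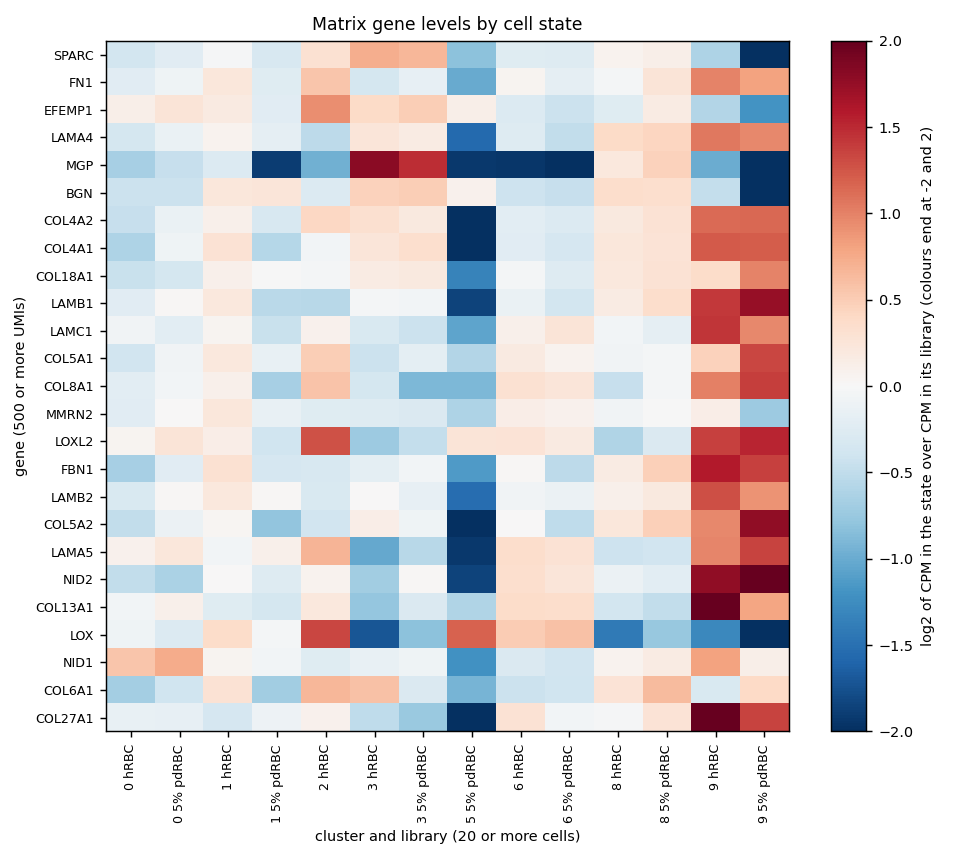
Levels of the 25 members with 500 or more UMIs (rows) in each cluster and library with 20 or more cells (columns), as log2 of the CPM in the state over the CPM in the whole library. Colours end at -2 and 2. MGP and SPARC are high in both columns of cluster 3, COL4A1, COL4A2 and LAMB1 are low in cluster 5, and in cluster 9 the median member stands at 0.99 in hRBC and 0.97 in 5% pdRBC, beside 0.26 and 0.02 over all genes.

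MGP had the widest range over states of the 25 members in hRBC. There it stood at 1170 CPM (1119 to 1223) in cluster 3 and at 86.6 CPM in cluster 6, a ratio of 13.5 (12.1 to 15.1). In 5% pdRBC it stood at 1097 CPM (1051 to 1145) and 79.8 CPM, a ratio of 13.7 (12.5 to 15.2). Cluster 3 held 44.3% of the MGP UMIs of hRBC and 33.6% of those of 5% pdRBC. SPARC was also higher in cluster 3 than in cluster 6, at 2544 against 1297 CPM in hRBC and 2281 against 1207 CPM in 5% pdRBC. BGN stood at 461 against 252 CPM and at 501 against 257 CPM. Unlike MGP, both SPARC and BGN were lowest in cluster 9 in each library. MGP was among the genes that led cluster 3 although it was not used to form it.

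LOX and LOXL2 had nearly the opposite pattern. LOX was at 11.2 CPM (6.76 to 17.5) in cluster 3 and 53.8 CPM in cluster 6 of hRBC, and at 19.0 CPM (13.3 to 26.1) and 50.6 CPM in 5% pdRBC. In cluster 2, led by inflammatory genes and holding 123 hRBC cells but only 15 of 5% pdRBC, too few for a level, LOX reached 93.0 CPM (58.9 to 139) on 23 UMIs, EFEMP1 719 CPM (618 to 833) and LOXL2 194 CPM (143 to 257). LOXL2 stood at 48.5 CPM in cluster 3 and 97.5 CPM in cluster 6 of the same library, and at 57.9 and 92.2 CPM in 5% pdRBC. LAMA5 was likewise lower in cluster 3 (18.9 and 25.6 CPM) than in cluster 6 (49.7 and 46.3 CPM).

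**Figure D3:**
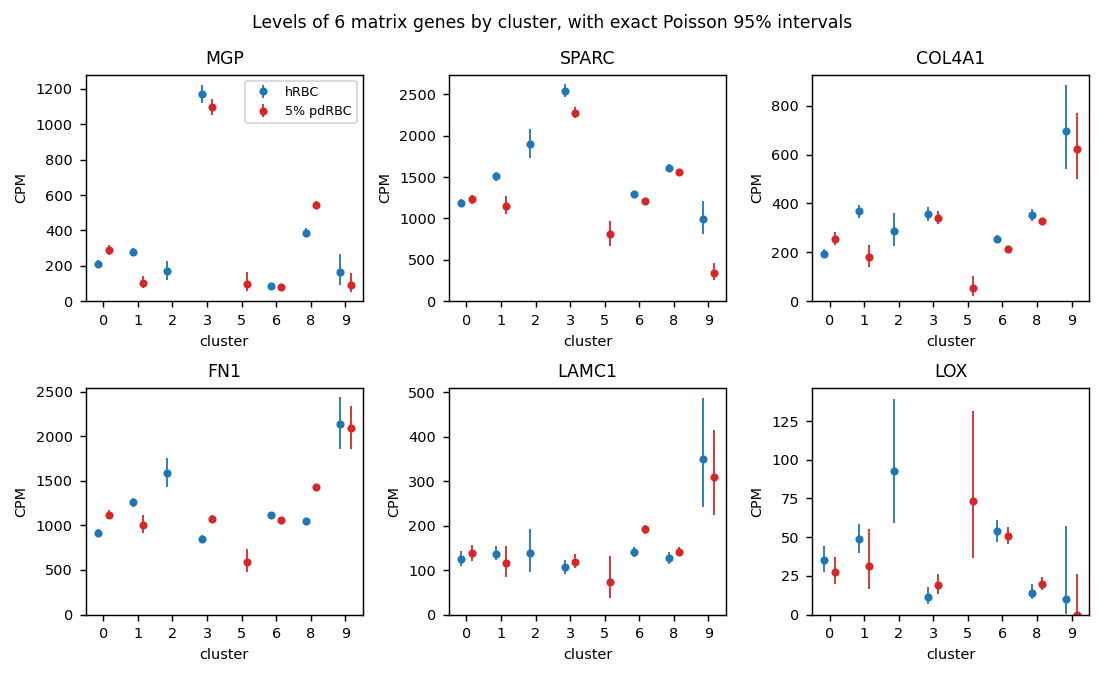
CPM (y axis) of MGP, SPARC, COL4A1, FN1, LAMC1 and LOX by cluster (x axis) in hRBC (blue) and 5% pdRBC (red), with exact Poisson 95% intervals as bars. MGP reaches 1170 and 1097 CPM in cluster 3, FN1 is higher in 5% pdRBC in cluster 8 and LAMC1 in cluster 6.

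Cluster 5, led by stress response genes, had little RNA of the basement membrane chains. In its 29 cells of 5% pdRBC COL4A1 stood at 53.4 CPM (23.0 to 105) against 271 in the library, COL4A2 at 33.4 (10.8 to 77.8) against 283, LAMB1 at 53.4 (23.0 to 105) against 204 and LAMA4 at 127 (76.3 to 198) against 382. The 18 hRBC cells of the cluster, too few for the minimum of 20, were low in the same genes. COL4A1 there stood at 69.9 CPM (30.2 to 138) against 300.2 in the library, COL4A2 at 52.5 (19.2 to 114) against 321, and LAMB1 at 26.2 (5.41 to 76.6) against 187. The interval lay below the library's level for 12 of 25 members in hRBC (17.1% of all 7020 genes) and for 12 of 25 in 5% pdRBC (14.1%). It lay above for 0 members in hRBC (7.31% of all genes) and for 1, LOX, in 5% pdRBC (8.25%). In so few cells such a call depends on level. A count of 0 UMIs had an upper limit of 32.2 CPM in hRBC and 24.6 CPM in 5% pdRBC. Genes with a lower library level could not be called below it. The shares over all genes were not matched to the members for level, so the counts do not show a loss particular to matrix genes. EFEMP1 and BGN were near the library's level in both. HSPA5, the chaperone among the leading genes, stood at 612 CPM in the hRBC and 1507 CPM in the 5% pdRBC cells of this cluster. Its levels in the whole libraries were 246 and 203 CPM. DDIT3, another leading gene, stood at 307 CPM (225 to 409) in the 5% pdRBC cells, against 20.3 in the library. In the hRBC cells DDIT3 stood at 35.0 CPM (9.53 to 89.5) on 4 UMIs, and this interval held the library's level of 13.2.

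Cluster 9 had the highest level of many members. COL4A1 and COL4A2 both stood at 698 CPM (542 to 884) in its 35 hRBC cells and at 624 CPM (500.1 to 770.1) in its 45 cells of 5% pdRBC. FN1 stood at 2134 and 2088 CPM, LAMA4 at 749 and 739 CPM and LAMB1 at 492 and 682 CPM. SPARC, at 995 and 344 CPM, and LOX, with 1 and 0 UMIs, were low there. In this cluster level followed gene span: across the 25 members, Spearman's rho between the genomic span and the level over the library was 0.57 in hRBC and 0.62 in 5% pdRBC, and across 7015 genes 0.65 and 0.70. Its cells also had a median of 4.79% and 9.65% mitochondrial UMIs, against a median of 2.17% and 1.85% over each library. Across the same 7015 genes rho was -0.35 in hRBC and -0.34 in 5% pdRBC for cluster 3. In 5% pdRBC it was -0.28 for cluster 5 and 0.29 for cluster 8. Across the members these values were -0.27, -0.17, -0.24 and 0.05. The part of gene span or cell quality in the levels of cluster 9 or of these other clusters was not tested.

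Folds between the libraries, as counted, went different ways in different states. In cluster 8, 8 of 25 members were higher with 5% pdRBC with an interval that left out 1 (12.1% of all genes there), and 0 were lower (9.66%). In cluster 6 it was 1 higher (14.8%) and 10 lower (13.9%). Cluster 0 had 5 higher (8.11%) and 0 lower (7.59%), and cluster 3 had 1 higher (6.78%) and 5 lower (6.64%). Cluster 9, with its 35 and 45 cells, had 1 higher (3.16%) and 3 lower (5.85%). In cluster 1 it was 0 higher (4.37%) and 11 lower (11.6%). Cells of 5% pdRBC were deeper in clusters 0, 1 and 3, with median UMIs of 10430, 5296 and 11403 against 2059, 1510 and 3347 in hRBC. In clusters 6 and 8 the medians were 10840 and 8774 against 11847 and 8955. The part of depth in these folds was not tested. With 1 library per group the difference between these folds was not tested.

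FN1 shows the pattern. In cluster 8 it stood at 1047 CPM in hRBC and 1429 CPM in 5% pdRBC, a log2 fold of 0.45 (0.38 to 0.51). In cluster 3 its log2 fold was 0.33 (0.23 to 0.43) and in cluster 0 it was 0.29 (0.19 to 0.38), whereas in cluster 6 it was -0.09 (-0.14 to -0.03). MGP was likewise higher in cluster 8, at 388 and 545 CPM (0.49, 0.38 to 0.60), and in cluster 0 (0.45, 0.26 to 0.65). In cluster 3, where its level was highest, its log2 fold was -0.09 (-0.18 to -0.00401). In the shallow cluster 1 both genes were lower with 5% pdRBC, with log2 folds of -1.39 (-1.91 to -0.94) for MGP and -0.32 (-0.48 to -0.16) for FN1. Without cluster 8 the log2 fold of FN1 over all cells was 0.01 and that of MGP 0.02, against 0.15 and 0.24 with it. That cluster held 11.4% of the hRBC cells and 33.5% of the 5% pdRBC cells.

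LAMC1 differed in another state. In cluster 6, led by EGR1 among others, it stood at 141 CPM in hRBC and 191 CPM in 5% pdRBC, a log2 fold of 0.44 (0.30 to 0.58). In clusters 0, 3 and 8 its log2 folds were 0.14, 0.15 and 0.15, with intervals that held 0. Its partner chains were not higher in cluster 6, where LAMB1 had a log2 fold of -0.10 (-0.24 to 0.03) and LAMA4 one of -0.17 (-0.27 to -0.06). Without cluster 6 the fold of LAMC1 over all cells was 0.12 on the log2 scale, against 0.28 with it.

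Type IV collagen was lower in several states and not in the cycling cluster 0. COL4A1 had a log2 fold of -0.25 (-0.36 to -0.13) in cluster 6, at 256 and 215 CPM, and COL4A2 one of -0.24 (-0.35 to -0.13), at 276 and 233 CPM. COL4A2 was also lower in cluster 3 (-0.31, -0.47 to -0.15), where the interval of COL4A1 held 0. In cluster 1 COL4A1 had a log2 fold of -1.01 (-1.40 to -0.66) and COL4A2 one of -0.60 (-0.95 to -0.29). In cluster 0 COL4A1 was higher with 5% pdRBC, at 194 and 255 CPM (0.39, 0.19 to 0.60). In cluster 8 the intervals of both genes held 0. FBN1 and COL5A2 were also lower in cluster 6, each with a log2 fold of -0.59 and intervals of -0.85 to -0.32 and -0.86 to -0.31. In cluster 8 their folds were 0.26 and 0.18, with intervals that held 0.

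**Figure D4:**
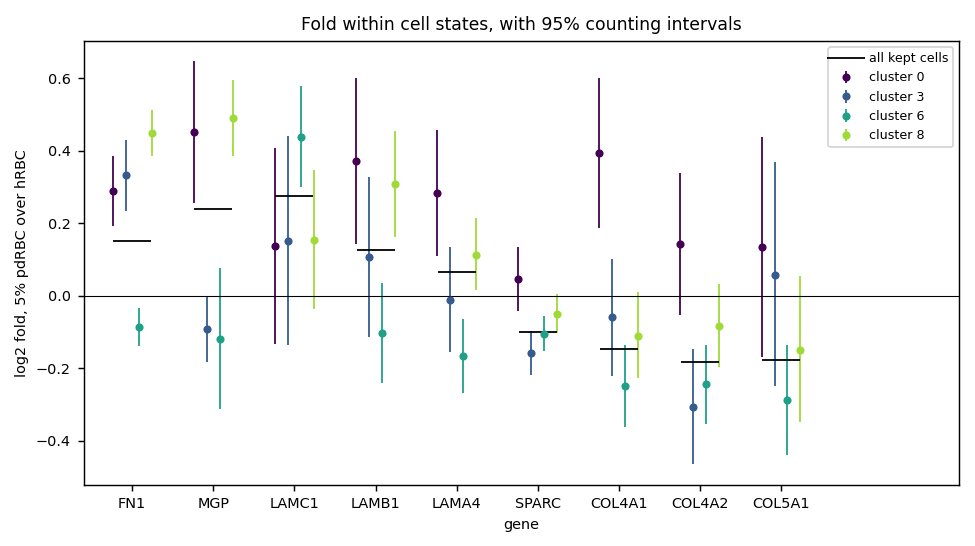
Log2 fold of 5% pdRBC over hRBC (y axis) for 9 members (x axis) within clusters 0, 3, 6 and 8, with 95% counting intervals as bars, and over all kept cells (black dashes). FN1 is above 0 in clusters 0, 3 and 8, LAMC1 stands out in cluster 6 and COL4A1 is above 0 only in cluster 0 of the 4 drawn.

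Ratios between the chains of a trimer were compared across states. In every cluster with 20 or more cells, UMIs of COL4A1 per UMI of COL4A2 lay between 0.670 and 1.60, the latter on 8 and 5 UMIs in cluster 5. Over whole libraries the ratio was 0.934 (0.894 to 0.975) in hRBC and 0.956 (0.917 to 0.997) in 5% pdRBC. The annotated spans of COL4A1 and COL4A2 overlap at their 5′ ends, so how the counts are divided between them is uncertain. LAMB1 per LAMA4 was 0.512 in hRBC and 0.534 in 5% pdRBC, and by state it ran from 0.414 (0.295 to 0.575) in cluster 1 to 0.922 (0.690 to 1.23) in cluster 9, both of 5% pdRBC. LAMC1 per LAMB1 was 0.830 in cluster 6 of hRBC and 1.21 in cluster 6 of 5% pdRBC, and below 0.70 in cluster 8 of both libraries (0.605 and 0.544). It was lowest in cluster 9 of 5% pdRBC, at 0.453 (0.308 to 0.655).

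**Figure D5:**
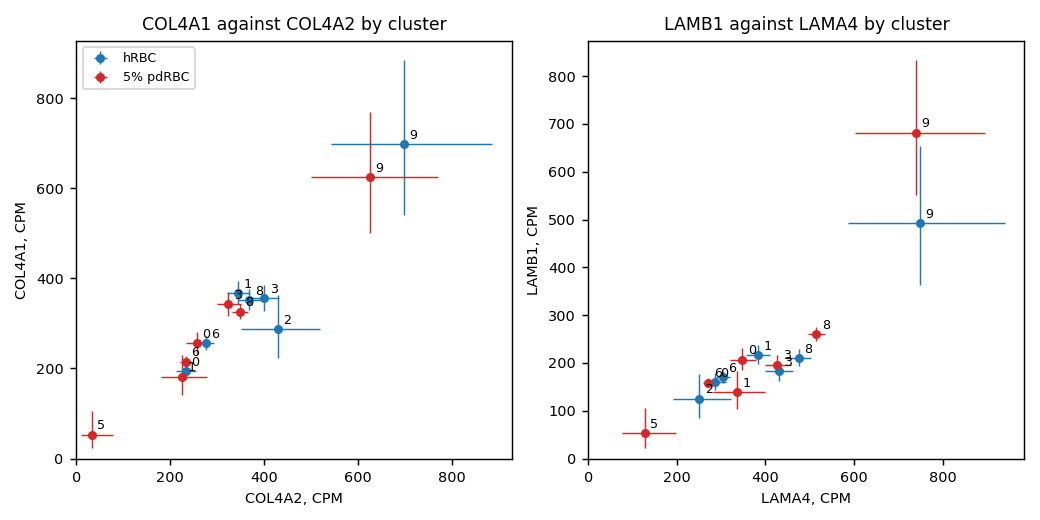
Left, COL4A1 against COL4A2 and right, LAMB1 against LAMA4, in CPM, with 1 point for each cluster and library of 20 or more cells (numbers are clusters, blue hRBC, red 5% pdRBC) and exact Poisson 95% intervals as bars. Both pairs run from cluster 5 of 5% pdRBC at the low end to cluster 9 at the high end, where both COL4A1 and COL4A2 reach 698 CPM in hRBC.

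Correlation from cell to cell singled out few pairs of members. In cells of 5000 or more UMIs, each thinned to 5000 UMIs, Pearson's r was computed for 300 pairs of the 25 members over 769 hRBC and 1370 5% pdRBC cells. The median r was 0.02 in both. COL4A1 with COL4A2 was the highest pair in both libraries, at 0.42 and 0.42. These are the genes that lie head to head. Their annotated spans overlap at the 5′ ends, where the kit counts: COL4A1 reaches to 110307233 and COL4A2 starts at 110305812. Strand use is not given, and the part of this overlap in their r was not tested. SPARC with MGP followed at 0.34 and 0.36, and MGP with BGN was at 0.22 and 0.29. Those 3 were the pairs above 0.2 in both libraries. LOX with COL4A1 was lowest in hRBC at -0.17, and -0.04 in 5% pdRBC. The cells of a library share its preparation, and at such counts a weak r is no finding.

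The genes most like COL4A1 in hRBC cells, after COL4A2, were VWF (r of 0.30, and 0.24 in 5% pdRBC), TFPI2 (0.26 and 0.22), HSPG2, which codes for the basement membrane proteoglycan perlecan (0.26 and 0.19), and TCF4 (0.25 and 0.16). Those most like FN1 were THBS1, a matricellular glycoprotein (0.34 and 0.34), ITGAV, an integrin subunit that binds fibronectin (0.23 and 0.21), HSPG2 (0.23 and 0.26), LINC00607 (0.23 and 0.25) and MMRN1 (0.22 and 0.25).

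Genes that fold, modify and export collagen chains were read from a list of 24, of which 23 had 100 or more UMIs. By the rule of 1.25-fold 0 were called higher (5.22% of all genes with 100 or more UMIs) and 0 lower (3.58%), with a median log2 fold of 0.02. These counts and the median include LEPROT, which is on the list but is not a collagen processing gene. Its log2 fold was -0.01 (-0.11 to 0.09). SERPINH1, the collagen chaperone HSP47, stood at 168 and 135 CPM and was 1.24-fold (1.17 to 1.32) lower with 5% pdRBC, just under the rule. P3H1, a prolyl 3-hydroxylase, was 1.22-fold (1.09 to 1.37) lower and FKBP14, a prolyl isomerase of the endoplasmic reticulum, 1.21-fold (1.07 to 1.36) lower. MIA2, of the collagen export machinery, had a log2 fold of 0.24 (-0.01 to 0.50).

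Of 12 assembly and crosslinking genes 6 were measured and 0 called. Of all genes with 100 or more UMIs, 5.22% were called higher and 3.58% lower. TINAGL1, a basement membrane glycoprotein, was 1.13-fold (1.09 to 1.17) lower, and PXDN, the peroxidase that forms sulfilimine bonds in type IV collagen, 1.11-fold (1.05 to 1.18) higher. Of 28 other matrix genes 19 were measured, 2 were called higher (5.22% of all genes) and 0 lower (3.58%), with a median of 0.09. FBN2, fibrillin-2, was 1.40-fold (1.08 to 1.83) higher and HMCN1, hemicentin-1, 1.29-fold (1.07 to 1.56) higher. AGRN, the proteoglycan agrin, was 1.19-fold (1.03 to 1.39) higher.

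Among 17 receptors for matrix 16 were measured, with 2 called higher (5.22% of all genes with 100 or more UMIs), 2 lower (3.58%) and a median of -0.08. DDR2, a receptor for fibrillar collagen, was 1.54-fold (1.33 to 1.78) higher at 22.0 and 33.8 CPM, and ITGB3, the beta3 integrin subunit, 1.38-fold (1.10 to 1.73) higher. ITGB4, the subunit that binds laminin in hemidesmosomes, was 1.79-fold (1.35 to 2.40) lower at 9.22 and 5.15 CPM, and CD44, the hyaluronan receptor, 1.53-fold (1.31 to 1.79) lower at 28.0 and 18.3 CPM.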

How the data were processed

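Raw UMI counts were deposited as a matrix of genes by barcodes for each library, made by Cell Ranger 7.0.0 per the file headers. The submitters' processing notes name GRCh38, and the labels a 10x Genomics 5′ version 2 kit. Annotation release, strand use and intron counting are not given in the sources consulted, so genes that overlap others are uncertain. Gene spans came from GENCODE 29 by identifier. With no filter stated, barcodes needed 1000 UMIs, 500 genes and no more than 20% mitochondrial UMIs to be kept, and median depths were 2175 and 9566 UMIs. They were clustered with Scanpy 1.11.5 (2000 variable genes less 10 members, 30 components, 15 neighbours, Leiden resolution 0.5, seed 0, python-igraph 0.11.9). Doublets were not removed. UMIs were summed per library or cluster, and folds are ratios of CPM with 0.5 UMIs added and exact Clopper-Pearson 95% intervals, tested on simulated data. Levels have exact Poisson and shares exact binomial intervals. PCR and capture error is not covered. Library totals set the scale, and TMM factors (edgeR 4.0.16), other cell filters, weights and gene minimums were tried. One member is not reported here by name. Members with 200 or more UMIs or a call are given with values, and other genes by the largest folds of their list. Clusters 1, 6 and 8 were left out, and cluster 5 of hRBC and the LAMA5, BGN and LOX contrasts picked, after the values were seen. The members and gene lists were chosen with earlier results of these data known.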

Additional observations from a re-analysis of the deposited data

Results flagged for a closer look

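Barcodes left out by the cell filter carried matrix RNA too, outside the comparisons above. The members made up 0.639% (0.623 to 0.654) of the UMIs in the 1303 hRBC barcodes left out, on 6301 UMIs, and 0.664% (0.576 to 0.761) in the 34 of 5% pdRBC, on 205 UMIs. The shares in kept cells were 0.604% and 0.609%.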

How the results depend on the processing

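The median log2 fold of the members stayed between -0.13 and 0.04 over all alternatives. No paired analysis was possible because each group is 1 library with no replicate number. Members 1.25-fold higher (2) numbered 1 with thinned cells and with a gene minimum of 100 UMIs, 0 with a minimum of 500 UMIs and with equal weight to each state, and 4 without cluster 6. At 1.5-fold (2) they numbered 1, 1, 0 and 0 in the first 4 of these settings. Members 1.25-fold lower (1) numbered 0 with the stricter cell filter, in cells of 5000 or more UMIs, with a minimum of 500 UMIs and without the cycling cluster. They numbered 2 with equal cell weight, with thinned cells and without cluster 6, and 4 with equal weight to each state. At 1.5-fold lower (0) they numbered 1 in those last 4 settings. The members' share of UMIs in hRBC (0.604%) was 0.594% with the stricter filter, 0.575% in cells of 5000 or more UMIs, 0.654% with equal cell weight, 0.643% with thinned cells, 0.597% with a minimum of 500 UMIs, 0.624% without the cycling cluster, 0.663% with equal weight to each state, and 0.595%, 0.636% and 0.597% without clusters 1, 6 and 8. In 5% pdRBC (0.609%) it was 0.605% in cells of 5000 or more UMIs, 0.626% with equal cell weight, 0.618% with thinned cells, 0.601% with a minimum of 500 UMIs, 0.615% without the cycling cluster, 0.635% with equal weight to each state, and 0.685% and 0.564% without clusters 6 and 8. The share was thus larger in hRBC than in 5% pdRBC with equal cell weight, thinned cells, equal state weight, without the cycling cluster and without cluster 8. Among members whose interval left out 1, log2 folds took the opposite sign for BGN (-0.0296 with equal cell weight, -0.0511 with thinned cells, -0.21 with equal state weight, -0.0114 without cluster 8), LAMB1 (-0.0324 with thinned cells, -0.0221 without cluster 8), LAMA4 (-0.0730 without cluster 8), LAMA2 (-0.38) and MGP (-0.24), the last 2 with equal state weight. Members whose interval held 1, among them EFEMP1, FBN1, COL5A2, COL27A1, LAMA5 and COL6A1, also changed sign in some settings. The spread over states (1.77) was 0.95 in cells of 5000 or more UMIs. The cause of these changes was not tested, apart from the gene minimums, which leave fewer genes. TMM and median-of-ratios scaling moved every log2 fold by 0.01 and 0.02 and changed no call. Leaving out clusters was chosen after seeing the data. Depth limits the 9 members under 100 UMIs, whose intervals span more than 1.5-fold. Intervals as wide also occur among members with somewhat more UMIs. Among these are the called LAMA2 (1.05 to 2.38-fold higher) and TGFBI (1.02 to 2.06-fold lower).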
